A study of Mus musculus with 4 samples.

Results

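H3K9ac peaks that barely widen with romidepsin were a minority of the CM peaks at gene ends. A gene end peak was a peak of the CM list overlapping the window of 1 kb on either side of an annotated end of a protein-coding gene. Of 9633 such peaks no longer than 5000 bp, 878 (9.11%, exact 95% interval 8.55 to 9.71%) had a longest overlapping romidepsin peak, called the partner here, less than 2 times as long. They are called barely widening peaks, and the remaining 8755 are called other gene-end peaks. The whole CM list held 16419 peaks and the romidepsin list 103336. Because the members were chosen by the lengths in both lists, the share of 9.11% and every length below describe the choice and carry no test.

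The samples were mouse bone marrow-derived MDSC (myeloid-derived suppressor cells), which the series design describes as senescent after induction in vitro. The libraries used were an immunoprecipitated library from cells in the condition named CM with romidepsin and an immunoprecipitated library from cells in CM without it, 1 library per condition. An input library of each condition was not analysed here. The labels do not expand CM and give no dose, time, strain, sex or age. With 1 library per condition no difference has a replicate check, and depth is unknown because peak lists give no read totals. Exact intervals cover counting error only. Myeloid labels were checked on gene-end peaks of any length. Monocyte and macrophage markers had one at 15 of 15 genes with romidepsin and 14 of 15 in CM, and neutrophil markers at 12 of 12 with romidepsin and 7 of 12 in CM. Lymphocyte markers had one at 6 of 10 genes with romidepsin and 2 of 10 in CM, and mast cell and basophil markers at 1 of 5 with romidepsin and 0 of 5 in CM. Dendritic cell markers had one at 5 of 7 with romidepsin and 2 of 7 in CM, erythroid and megakaryocyte markers at 4 of 6 with romidepsin and 2 of 6 in CM, and stromal and endothelial markers at 5 of 7 with romidepsin and 1 of 7 in CM. Of all protein-coding genes, 63.8% had one with romidepsin and 48.8% in CM. In CM the monocyte and neutrophil lists thus stood above all genes and the other lists below. The neutrophil markers without one in CM were Camp, Ltf, Ly6g, Mpo and S100a9. With romidepsin the dendritic cell (71.4%), erythroid and megakaryocyte (66.7%) and stromal and endothelial lists (71.4%) also stood above all genes.

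Acetylation of histone H3 at lysine 9 is added by acetyltransferases and removed by histone deacetylases, and it marks nucleosomes flanking the start sites of active genes. Romidepsin is a cyclic peptide prodrug that inhibits class I deacetylases and raises histone acetylation. MDSC are immature cells of the monocyte and neutrophil lineages that dampen T cell responses.

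Promoter sequences are shown to set the starts under barely widening peaks beside those under 2 peaks with far longer partners with romidepsin. Each runs 5′ to 3′ on the gene's strand, from 250 bases before to 50 bases after the start (RefSeq, GRCm38.p6), with CpG dinucleotides in capitals. Pcbp1 (chr6:86526140-86526439, minus strand) and Lemd3 (chr10:120979281-120979580, minus strand) lay under barely widening peaks of high CM fold. A fold is the authors' peak caller's enrichment over background, averaged over the peak. Folds of the 2 lists rest on different backgrounds and are not compared. Sp100 (chr1:85649764-85650063, plus strand) and Galnt7 (chr8:57653006-57653305, minus strand) lay under peaks with the lowest length ratios that held a listed promoter. Rplp2 (chr7:141447401-141447700, plus strand) and Ensa (chr3:95624730-95625029, plus strand) lay under CM peaks of 1730 bp and 2287 bp whose partners were 27.8 and 25.7 times as long. They had the highest ratios among gene-end peaks of 1500 to 2500 bp that held a listed promoter.
Pcbp1: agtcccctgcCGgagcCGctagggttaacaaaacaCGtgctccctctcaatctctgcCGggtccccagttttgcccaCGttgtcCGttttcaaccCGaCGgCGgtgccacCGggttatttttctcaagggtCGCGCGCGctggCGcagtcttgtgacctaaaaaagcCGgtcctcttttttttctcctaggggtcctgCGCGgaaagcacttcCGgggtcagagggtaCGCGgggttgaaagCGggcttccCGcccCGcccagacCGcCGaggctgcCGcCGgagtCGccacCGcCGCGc
Lemd3: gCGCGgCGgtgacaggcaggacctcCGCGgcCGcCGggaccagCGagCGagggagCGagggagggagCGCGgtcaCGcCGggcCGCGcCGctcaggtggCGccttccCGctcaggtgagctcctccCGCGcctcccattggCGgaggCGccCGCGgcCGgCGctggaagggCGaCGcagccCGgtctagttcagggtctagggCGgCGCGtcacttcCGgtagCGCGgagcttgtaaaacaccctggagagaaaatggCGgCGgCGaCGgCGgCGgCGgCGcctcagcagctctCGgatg
Sp100: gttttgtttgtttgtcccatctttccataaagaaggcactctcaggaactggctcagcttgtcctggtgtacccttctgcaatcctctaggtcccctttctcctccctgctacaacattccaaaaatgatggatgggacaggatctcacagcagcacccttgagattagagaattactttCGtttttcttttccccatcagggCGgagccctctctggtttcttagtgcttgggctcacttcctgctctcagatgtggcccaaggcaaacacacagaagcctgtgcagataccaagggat
Galnt7: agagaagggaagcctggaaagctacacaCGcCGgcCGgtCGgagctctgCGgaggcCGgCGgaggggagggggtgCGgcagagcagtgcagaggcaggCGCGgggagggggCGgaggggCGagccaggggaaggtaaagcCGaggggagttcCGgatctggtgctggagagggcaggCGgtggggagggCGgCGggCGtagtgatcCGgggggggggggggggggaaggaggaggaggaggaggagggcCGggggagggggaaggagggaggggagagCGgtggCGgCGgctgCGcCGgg
Rplp2: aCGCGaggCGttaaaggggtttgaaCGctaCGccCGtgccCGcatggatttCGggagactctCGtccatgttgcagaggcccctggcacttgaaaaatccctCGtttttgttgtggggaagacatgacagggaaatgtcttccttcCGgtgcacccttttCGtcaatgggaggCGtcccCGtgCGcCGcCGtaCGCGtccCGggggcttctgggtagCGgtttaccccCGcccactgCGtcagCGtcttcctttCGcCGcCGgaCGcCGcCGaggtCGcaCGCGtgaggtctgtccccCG
Ensa: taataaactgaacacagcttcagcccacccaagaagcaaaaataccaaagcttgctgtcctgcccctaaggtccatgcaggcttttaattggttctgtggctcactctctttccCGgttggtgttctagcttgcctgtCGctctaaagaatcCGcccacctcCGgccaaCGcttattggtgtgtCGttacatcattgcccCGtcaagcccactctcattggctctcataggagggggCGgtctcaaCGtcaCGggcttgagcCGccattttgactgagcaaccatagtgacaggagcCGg
The Pcbp1, Lemd3 and Galnt7 promoters held 32, 45 and 25 CpG, and the Sp100 promoter held 2. The promoters under the peaks with long partners held 34 (Rplp2) and 12 (Ensa). A CpG-rich promoter was thus present on both sides of the limit, and Sp100 was a CpG-poor exception among the barely widening peaks shown.

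Partners of barely widening peaks had a median length of 3048 bp with romidepsin, against a CM length of 1790 bp. The median length ratio was 1.77 (interquartile range 1.61 to 1.89). Other gene-end peaks had a median partner of 5647 bp with romidepsin, against 1420 bp in CM, a ratio of 3.77. At the CM lengths of the barely widening peaks, other peaks had a median partner of 6698 bp. The barely widening peaks were therefore still wider with romidepsin, by a median of 1264.5 bp, and 11 of the 878 had a shorter partner. Around the limit the ratios ran on without a break. Just inside it lay Wfs1 (2449 bp with romidepsin, against 1225 bp in CM), Srsf7 with Gemin6 (4616 bp with romidepsin, against 2309 bp in CM), Spns1, H2-K1 and Cops8 (3215 bp with romidepsin, against 1611 bp in CM). Just outside it lay Tsks with Ap2a1 (2904 bp with romidepsin, against 1452 bp in CM), Abcb10 (4129 bp with romidepsin, against 2064 bp in CM), Tcf12, Ctse and Adal with Lcmt2.

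**Figure D1:**
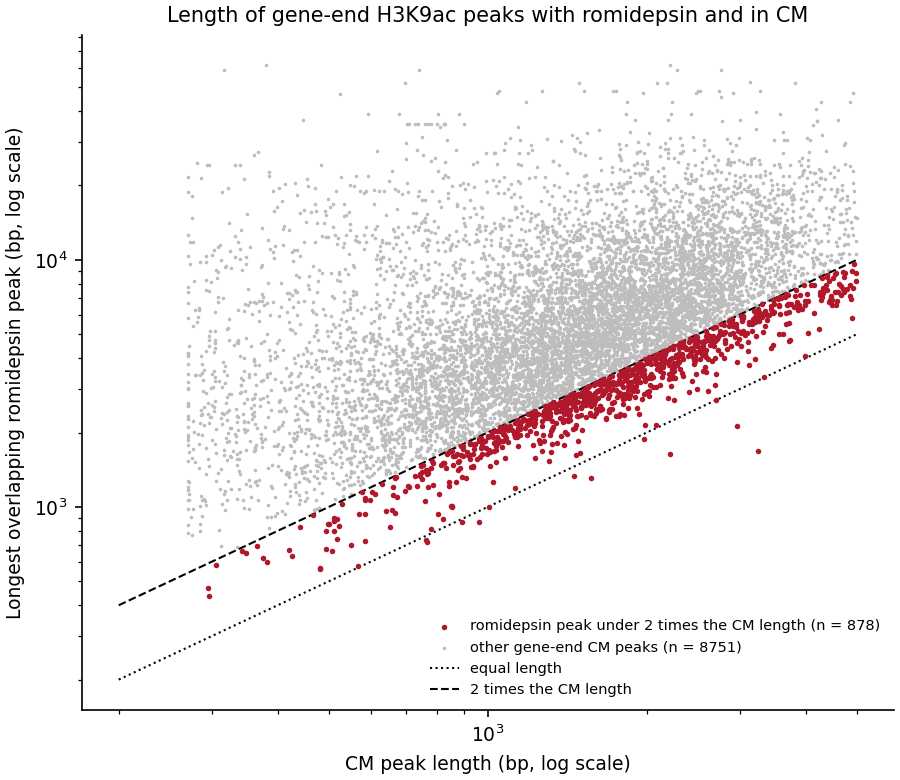
Length of the longest overlapping romidepsin peak (vertical axis, bp, log scale) against the length of the CM peak (horizontal axis, bp, log scale), 1 point per gene-end CM peak with a romidepsin peak. The 878 barely widening peaks (red) lie below the dashed line of 2 times the CM length, mostly between it and the dotted line of equal length, and 8751 other peaks (grey) lie on or above it.

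The romidepsin signal around barely widening peaks was often split into several peaks, as it was around other peaks. Another romidepsin peak lay within 1 kb of the partner at 588 of the 878 barely widening peaks (67.0%), against 68.7% of other gene-end peaks and 73.2% at the same CM lengths. Many of these neighbours were weak. Another romidepsin peak lay within 5 kb of the partner at 79.5% of the barely widening peaks, but at 63.8% and 16.6% of those found when only romidepsin peaks with a −log10 q of at least 2 and 5 were kept. The joined spans below therefore take in weak peaks. Where romidepsin peaks closer than 1 kb were joined, 315 of the 878 (35.9%) stayed under 2 times the CM length, and the median ratio was 2.68 (interquartile range 1.88 to 4.19). Of the 588, 25 stayed under the limit. The label "barely widen" thus held for 315 peaks at this joining distance, 290 of which had no other romidepsin peak within 1 kb of the partner. For the others it describes the listed peak only. Other joining distances were not run. Isolated partners were nonetheless more frequent among barely widening peaks at the ratio limit of 2. No other romidepsin peak lay within 10 kb of the partner at 146 of 878 (16.6%, exact 95% interval 14.2 to 19.3%), against 10.5% of other gene-end peaks and 7.47% at the same CM lengths. By the measure of 5 kb this did not extend to the peaks that widened least, for which the share within 10 kb was not run. At a ratio limit of 1.5, 91.3% of 138 peaks (exact 95% interval 85.3 to 95.4%) had another romidepsin peak within 5 kb of the partner. Other gene-end peaks, as defined at the limit of 2, had one at 85.6%. Peaks on chromosome X passed the limit of 1.5 more often than autosomal ones, at 13.4%, against 1.13% on autosomes.

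Zswim6, a gene for a zinc finger SWIM-type protein, had 2 neighbouring barely widening peaks with a break in both lists. Its first peak was 2149 bp long with romidepsin (chr13:107887889-107890037), against 2083 bp in CM (chr13:107888015-107890097), a ratio of 1.03. Its neighbour was 2428 bp with romidepsin (chr13:107890390-107892817), against 1695 bp in CM (chr13:107890613-107892307), a ratio of 1.43. Both lists broke between the peaks, with a gap of 352 bp with romidepsin and 515 bp in CM. Lemd2, which encodes an inner nuclear membrane protein, had a partner of 2285 bp with romidepsin, against 1674 bp in CM, with the next romidepsin peak 421 bp away. At both genes the mark continued with romidepsin in further peaks on each side. An edge within 100 bp of the partner's edge was found at 151 of the 878 (17.2%, exact 95% interval 14.8 to 19.9%), against 3.66% of other peaks, and the ratio limit itself favours such edges. At 114 of these 151 barely widening peaks another romidepsin peak began within 1 kb beyond that edge. The same held at 253 of the 320 other peaks with such an edge. A further romidepsin peak beyond a shared edge was thus not particular to the barely widening peaks.

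**Figure D2:**
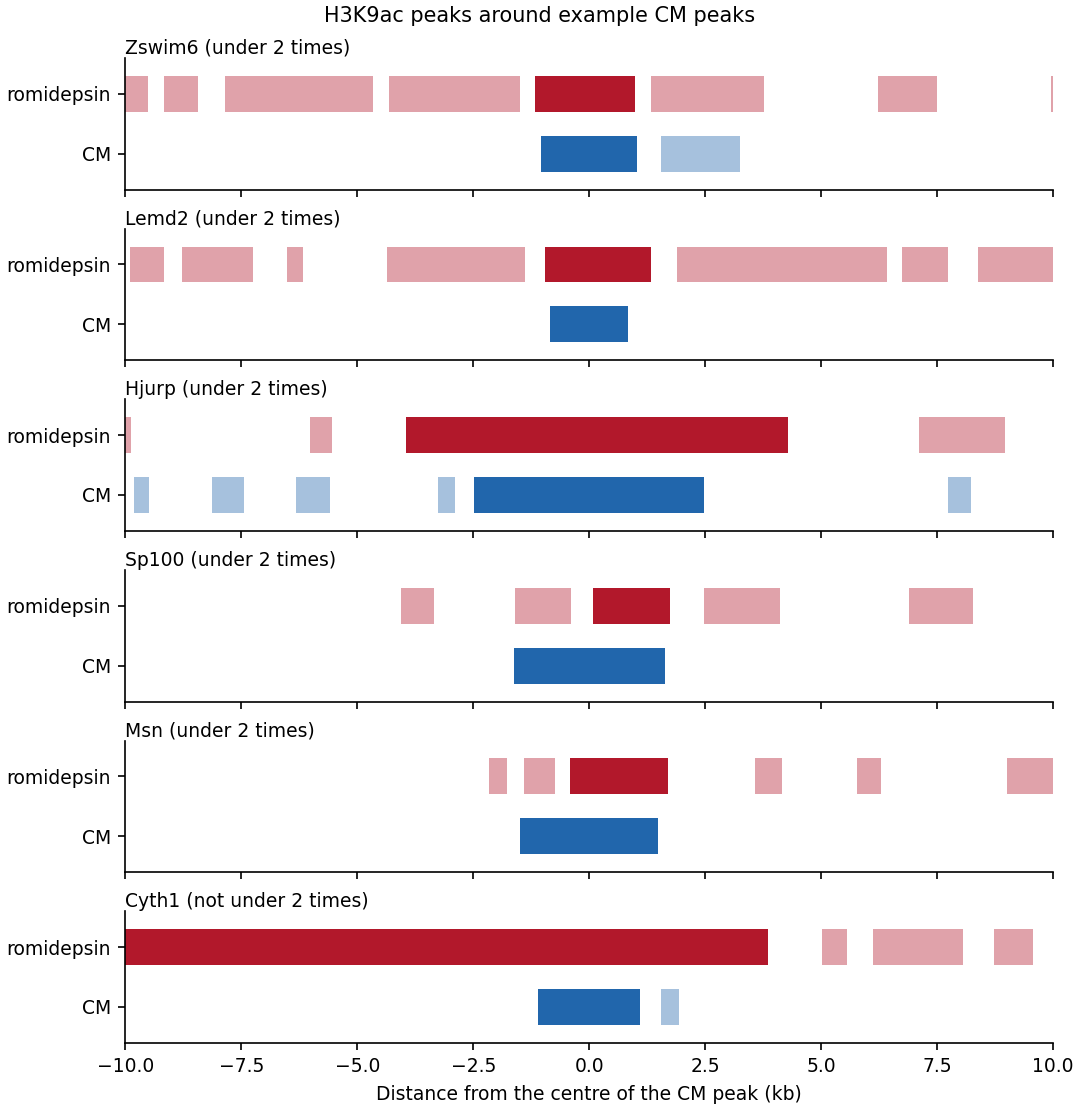
Peaks of the romidepsin list (red, upper bar of each panel) and of the CM list (blue, lower bar) within 10 kb of the centre of 6 CM peaks, the solid colours being the CM peak and its partner and the pale colours other peaks. At Zswim6 and Lemd2 the partner ends close to the CM peak and further romidepsin peaks follow, at Sp100 and Msn more than 1 romidepsin peak covers the CM peak, and at Cyth1, which is not a barely widening peak, the partner runs out of the window.

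The highest CM fold among the barely widening peaks, 10.3, belonged to Hjurp, the chaperone that loads the centromeric histone CENP-A. The Hjurp peak was 8234 bp long with romidepsin (chr1:88271900-88280133), against 4971 bp in CM (chr1:88273354-88278324). A further barely widening peak at the Hjurp and Mroh2a end was 1882 bp long with romidepsin, against 1978 bp in CM. Within 10 kb of the centre of the main Hjurp peak the CM list held several separate small peaks, unlike the regions around Lemd2, Sp100 and Msn in the same map. No list of regions prone to artefactual signal was used here, and whether the fold at Hjurp is technical was not tested. Pcbp1, for an RNA-binding protein, had a partner of 7872 bp with romidepsin, against 4375 bp in CM. Lemd3, which like Lemd2 encodes an inner nuclear membrane protein, had 3965 bp with romidepsin, against 2213 bp in CM. Poldip3 had 3902 bp with romidepsin, against 2167 bp in CM. Relt, a member of the tumour necrosis factor receptor family, had 720 bp with romidepsin, against 768 bp in CM, and its partner sat inside the CM peak.

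Length ratios under 1 were found where 2 or more romidepsin peaks shared a CM peak, or where the partner was trimmed. The lowest, 0.516, was at Sp100, a component of nuclear bodies. Its partner measured 1677 bp with romidepsin (chr1:85651220-85652896), against 3250 bp in CM (chr1:85649522-85652771), and the gene's start lay in the stretch that the partner did not reach. A second romidepsin peak covered that stretch in part, and the gene's start lay within this second peak. Msn, for the cytoskeletal linker moesin, had 2127 bp with romidepsin, against 2962 bp in CM. Overlap with 2 or more romidepsin peaks was found at 17 of 878 barely widening peaks (1.94%) and at 10 of 8751 other peaks (0.114%). The rule itself favours such splits, since only the longest romidepsin peak is the partner. At Galnt7, for a glycosyltransferase that starts O-linked sugar chains, a partner of 2717 bp with romidepsin and a CM peak of 2700 bp were displaced from each other. The longest CM peaks in the set were those at Ppp1r1b with Stard3 (8803 bp with romidepsin, against 4989 bp in CM), at Zfp207 (9582 bp with romidepsin, against 4936 bp in CM) and at Cd53, a leukocyte tetraspanin (7711 bp with romidepsin, against 4910 bp in CM). Zyx, for the focal adhesion protein zyxin, had 5822 bp with romidepsin, against 4904 bp in CM, and 899 of the added bases lay on its upstream side.

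The barely widening peaks had a similar CM fold to other gene-end peaks but lay farther from the next CM peak. The median CM fold was 5.62, against 5.68 at other gene-end peaks and 5.88 at other peaks of the same CM lengths. The median gap to the next CM peak was 32647.5 bp at barely widening peaks, against 17526 bp at other gene-end peaks and 16127 bp at the same CM lengths. On autosomes 160 of 1096 gene-end peaks barely widened where the gap was over 100 kb, against 65 of 1251 where it was up to 1 kb. A partner that joins a neighbouring CM peak is long, so these gaps are tied in part to the rule. How large that part is was not tested. The partners had a median romidepsin fold of 4.29, against 3.91 for the partners of other peaks, and a median −log10 q of 7.64, against 6.36 for the partners of other peaks. These partners were also shorter, by the rule, and folds were not compared at equal partner length. H60b, a ligand of the activating receptor NKG2D, had the highest romidepsin fold of the set, 6.07. Hectd4, Rnf7 and Gemin5 followed at 5.78, 5.78 and 5.75.

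Nearly all barely widening peaks lay at a gene start where strand was known. A start was in reach at 735 of 744 (98.8%, exact 95% interval 97.7 to 99.4%), against 96.1% of other gene-end peaks. Added bases were fewer on both sides of the CM peak, as the rule requires. Upstream of the start the partner added a median of 533 bp at barely widening peaks, against 1219 bp at other peaks, and downstream it added 738 bp at barely widening peaks, against 2333 bp at other peaks. More was added upstream than downstream at 200 of 569 barely widening peaks (35.1%, exact 95% interval 31.2 to 39.2%), against 29.4% of other peaks. Extension into the gene body was thus the more frequent side in both sets. The partner held no other CM peak at 851 of 878 (96.9%), against 75.9% of other gene-end peaks, since a partner that joins several CM peaks is long.

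In the lists as deposited, chromosome X held barely widening peaks more often than any autosome. On X, 65 of 239 gene-end peaks were barely widening (27.2%, exact 95% interval 21.7 to 33.3%), against 812 of 9391 on the autosomes (8.65%, 8.09 to 9.23%). Autosomes ranged from 6.40% on chromosome 11 to 13.2% on chromosome 16. CM peaks on X were shorter and weaker than on autosomes, with a median length of 666 bp on X, against 1474 bp on autosomes, and a median CM fold of 4.19 on X, against 5.70 on autosomes. At the mix of CM lengths and folds found on X, the autosomes gave 5.81%. The X peaks also had weak partners, with a median −log10 q of 3.03, against 6.47 on autosomes. With romidepsin peaks kept only at a −log10 q of at least 5, 1 of 239 X peaks kept a partner, and it barely widened. On autosomes 8346 of 9391 peaks kept a partner, and 768 of them barely widened. A peak without a partner counts as not barely widening. The X share of 0.418%, against 8.18% on autosomes, thus follows from lost partners and does not measure widening. With romidepsin peaks closer than 1 kb joined, the X share was 7.53%, against 3.15% on autosomes. The part of weak signal on X in the higher share was not tested.

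**Figure D3:**
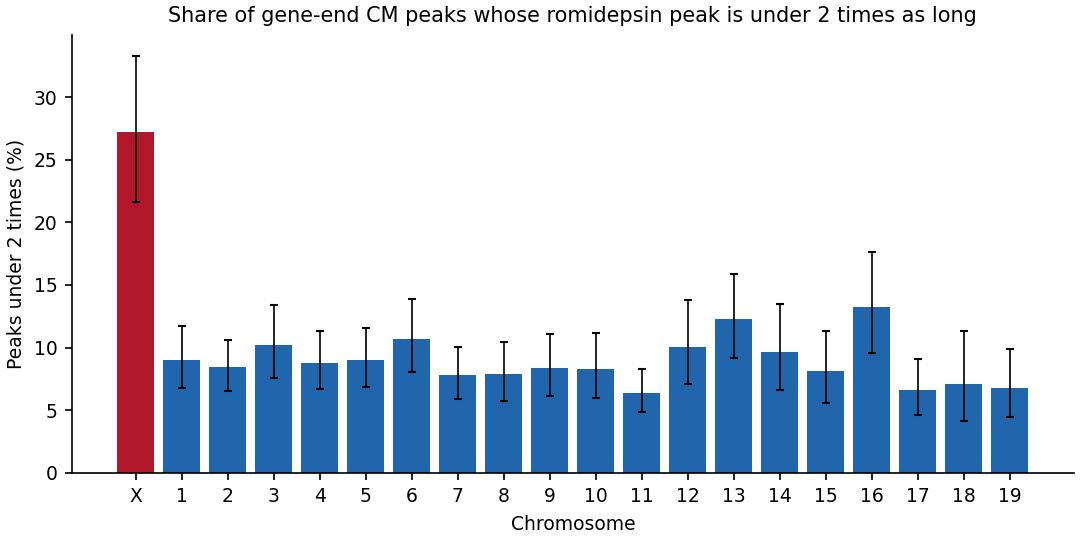
Share of gene-end CM peaks that barely widened (vertical axis, %), by chromosome (horizontal axis), with exact 95% intervals as error bars. X (red) stands at 27.2% and its interval lies above those of all 19 autosomes (blue), which run between 6.40% and 13.2%.

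The X set included regulators of chromatin and of myeloid cells, and these were chosen after their values were seen. Kdm6a, a demethylase of H3 lysine 27, had a partner of 2995 bp with romidepsin, against 2495 bp in CM, a ratio of 1.20. Ddx3x, an RNA helicase, had a partner of 3743 bp with romidepsin (chrX:13282966-13286708), against 3123 bp in CM (chrX:13279949-13283071), and the partner met the CM peak only at its end. Its relative on Y, Ddx3y, had 2069 bp with romidepsin, against 1324 bp in CM. Not all such X and Y relatives did so: Uty, the Y relative of Kdm6a, had a ratio of 3.81, Eif2s3x 3.23, Eif2s3y 3.30, Kdm5c 3.45 and Usp9x 2.74. Among genes of blood cells, Was, which drives actin branching, had a ratio of 1.90, Irak1, a kinase below Toll-like receptors, 1.34, and Cfp, for properdin of the complement system, 1.55. Tmsb4x, for the actin-binding thymosin beta 4, had 1.22. Gene-end peaks on Y were found at Ddx3y, Uty and Eif2s3y, and neither list held a peak within Xist or 1 kb of it. The labels do not give the sex of the animals.

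Barely widening peaks were more frequent among long CM peaks and where genes were sparse. On autosomes the share was 1.65% for CM peaks up to 500 bp, 10.2% at 1501 to 2000 bp and 29.8% at 4501 to 5000 bp. A short peak passes a given ratio with few added bases, so this trend is tied to the rule. With 1 to 2 gene ends within 50 kb, 12.5% of autosomal gene-end peaks barely widened (exact 95% interval 11.1 to 14.1%), and with 13 or more 3.92% did (2.79 to 5.34%). Among peaks whose partner held no other CM peak, these shares were 14.2% and 7.31%. That subset depends on the romidepsin lengths that chose the members, so it says nothing of the part that joined CM peaks have in the trend. Median CM length differed little between these classes, at 1515 bp in the sparsest and 1531 bp in the densest. Rnpc3, Pot1a and Nt5c1b with Rdh14 had the partners farthest from any other romidepsin peak in the set. Their length ratios were 1.93, 1.98 and 1.91.

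**Figure D4:**
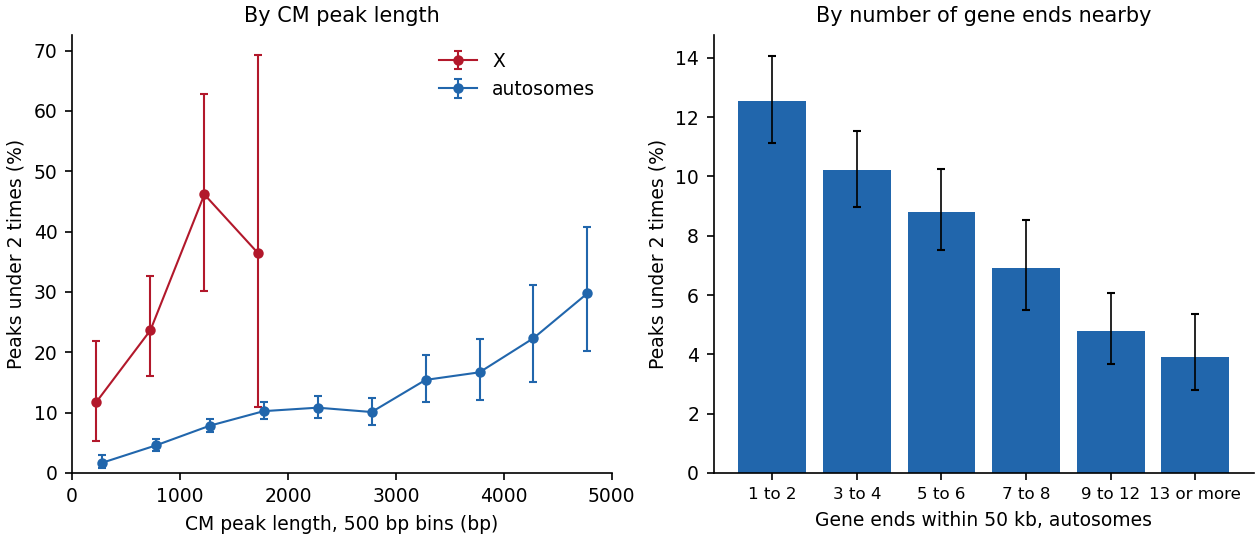
Share of gene-end CM peaks that barely widened (vertical axes, %) by CM peak length in bins of 500 bp for X (red) and autosomes (blue), and by the number of gene ends within 50 kb on autosomes, with exact 95% intervals. The share climbs with CM length on autosomes from 1.65 to 29.8%, X lies above autosomes in each bin shown (bins with at least 10 peaks), and the share falls from 12.5 to 3.92% as gene ends become dense.

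Zinc finger genes with a barely widening peak included Zbtb7a, Zbtb18, Zfp148 and Zfp207. C2H2 zinc finger proteins are the largest family of mammalian transcription factors, and many of their genes sit in clusters. Of the gene-end peaks at Zfp and Zbtb genes, 46 of 345 barely widened (13.3%, exact 95% interval 9.93 to 17.4%), against 8.06% of all gene-end peaks at the same CM lengths. On autosomes the share was 13.2% (45 of 341), against 8.48% at other genes. With 5 or more gene ends within 50 kb it was 12.3% at zinc finger genes (exact 95% interval 8.36 to 17.3%), against 6.17% at other genes. With 1 to 4 it was 14.9% at zinc finger genes (exact 95% interval 8.93 to 22.8%), against 11.2% at other genes, which lies inside that interval. With romidepsin peaks closer than 1 kb joined the share at zinc finger genes was 7.54%, against 3.15% of all autosomal peaks. Zbtb7a, a repressor in blood cell development, led the list in CM fold, with 4405 bp with romidepsin, against 3446 bp in CM. Zinc finger gene copies are similar in sequence, and short reads shared between them could not be followed in peak lists.

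Genes of translation and of the cell cycle had smaller shares of barely widening peaks, but not a higher median length ratio. That ratio was 3.53 for translation and 3.32 for the cell cycle, against 3.54 for all gene-end peaks. Within translation it was higher for cytosolic ribosomal proteins, at 4.14, and between 3.14 and 3.32 for the other lists. No allowance was made for the 31 gene lists looked at. The translation lists were ribosomal proteins of cytosol and mitochondrion, genes named as translation factors, and tRNA synthetases. Over these, 14 of 285 gene-end peaks barely widened (4.91%, exact 95% interval 2.71 to 8.10%), against 9.48% of all peaks at those CM lengths. The cytosolic ribosomal proteins had 4 of 97, at Rpl24, Rpl36a, Rpl7 and Rps6, and the peak shared by Rpl7 and Rdh10 measured 5479 bp with romidepsin, against 3678 bp in CM. Cell cycle and mitosis genes had 5 of 145 (3.45%, 1.13 to 7.86%), against 9.88% at their lengths, namely Anapc1, Cdk16, Cenpj, Ndc80 and Plk1. Plk1, a mitotic kinase, had 4676 bp with romidepsin, against 2698 bp in CM. Respiratory chain genes had 8 of 95 and splicing factors 6 of 70, both near the 9.11% of all gene-end peaks. Genes of vesicle traffic had 13 of 182 and solute carriers 13 of 192.

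In the remaining housekeeping lists the shares ran from 2.56 to 14.3%, and each exact interval included the 9.11% of all gene-end peaks. Mitochondrial ribosomal proteins had 4 of 77, genes named as translation factors 5 of 73 and tRNA synthetases 1 of 39, at Ears2. The translation factor list also holds genes with such names that encode other proteins, among its barely widening peaks Eef1akmt4, Eef1e1 and Eif2ak3. Eif3b, a subunit of an initiation factor, led the translation factors in CM fold, with 6845 bp with romidepsin, against 3472 bp in CM. The list of RNA polymerase, mediator and TFIID had 4 of 84 (4.76%, against 9.21% of all peaks at its lengths), led by Taf2, the proteasome 2 of 37, led by Psmd11, and ubiquitin conjugation and removal 13 of 127, led by Fbxw4. DNA replication and repair genes had 6 of 77, among them Mcm4, a subunit of the replicative helicase, whose peak is shared with Prkdc. Clustered histone genes had 4 of 28, and the peak at H2bc9 and H3c7 measured 7544 bp with romidepsin, against 3837 bp in CM. Ndufa6, a subunit of respiratory complex I, measured 3472 bp with romidepsin, against 2229 bp in CM, and Hnrnph3, a splicing regulator that shares its peak with Pbld2, 6231 bp with romidepsin, against 3349 bp in CM.

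**Figure D5:**
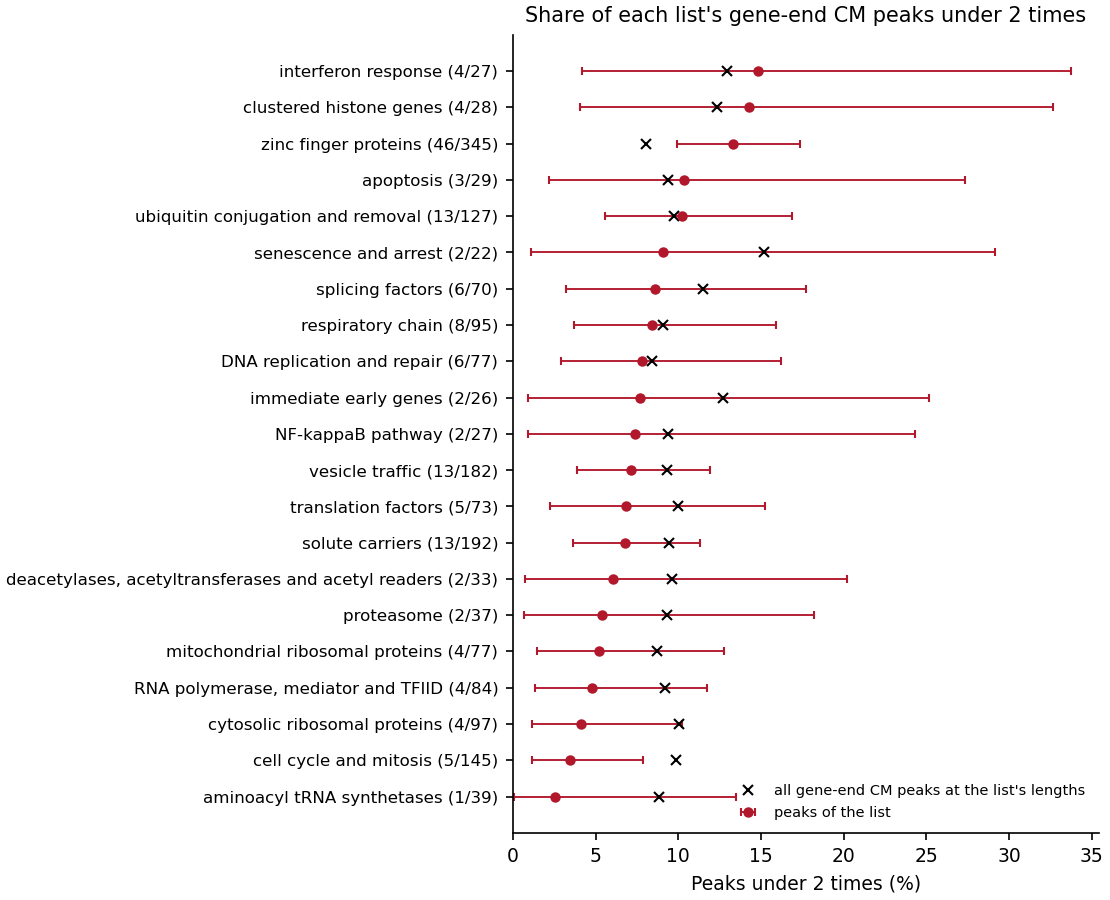
Share of gene-end CM peaks that barely widened (horizontal axis, %) for each gene list with at least 20 such peaks (red points, exact 95% intervals, counts in brackets) and for all gene-end peaks at the list's CM lengths (black crosses). Zinc finger proteins lie above their cross with the whole interval, cell cycle and mitosis below it, and all other intervals include their cross.

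Barely widening peaks at interferon and inflammatory genes included those at Usp18, Ifit1, Ifit3, Isg20 and Tnf. Interferon response genes had 4 of 27 (14.8%, exact 95% interval 4.19 to 33.7%). Usp18, which removes ISG15 from proteins, had 4070 bp with romidepsin, against 3990 bp in CM, a ratio of 1.02. Ifit3 had 6333 bp with romidepsin, against 3931 bp in CM, and the peaks at Ifit1 (shared with Ifit1bl2) and Isg20 (shared with Aen) had ratios of 1.62 and 1.87. Tnf was the barely widening peak among 8 at secreted inflammatory factors, with 4002 bp with romidepsin, against 2692 bp in CM. The NF-kappaB list had 2 of 27 (7.41%, against 9.38% at its lengths), Irak1 and Irak3. Immediate early genes had 2 of 26 (7.69%, against 12.7% at their lengths), Klf4 and Nr4a3. The counts of these lists are small, and their intervals include the share of all gene-end peaks, also at the lists' lengths.

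Marker lists of lymphocytes, dendritic cells, mast cells, erythroid and stromal cells held 6 gene-end peaks up to 5000 bp in all, none of them barely widening. Monocyte and macrophage markers had 2 of 12 (16.7%, against 13.1% of all gene-end peaks at their lengths) and neutrophil markers 2 of 6 (33.3%, against 9.52% at their lengths). Yet the median length ratio over all peaks of these lists was high. It was 4.96 for monocyte and macrophage markers and 8.24 for neutrophil markers, against 3.54 for all gene-end peaks. Among the barely widening ones, Itgam (CD11b) had 5026 bp with romidepsin, against 2790 bp in CM. Klf4, a factor of monocyte development, had 6426 bp with romidepsin, against 3892 bp in CM. Gfi1, a repressor needed for neutrophil development, had 6361 bp with romidepsin, against 3874 bp in CM. S100a8, for an alarmin of neutrophils and monocytes, had 4009 bp with romidepsin, against 2797 bp in CM. None of 11 gene-end peaks at genes of immune suppression by myeloid cells and none of 19 at lysosome and lipid genes barely widened, with exact 95% upper limits of 28.5% and 17.6%. Senescence and arrest genes had 2 of 22 (9.09%, against 15.2% at their lengths), Gadd45a (4509 bp with romidepsin, against 2465 bp in CM) and Sesn1, whose peak also covers the end of Cep57l1 (6543 bp with romidepsin, against 3554 bp in CM). Among genes for apoptosis, Bbc3, Casp8 and Cycs were 3 of 29 (10.3%, against 9.40% at their lengths). Of genes for the enzymes and readers of acetylation, Hdac2, a target of romidepsin, had 2338 bp with romidepsin, against 1747 bp in CM, and the acetyltransferase gene Kat6a had 1438 bp with romidepsin, against 886 bp in CM. They were the barely widening peaks among 33 at such genes (6.06%, against 9.62% at their lengths). All these counts are small, and the exact intervals include the shares at the lists' lengths.

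Promoters under barely widening peaks were CpG-rich like those under other gene-end peaks, with some motif shares higher and others lower. A RefSeq promoter lay inside the peak at 525 barely widening and 4016 other peaks. Median GC content was 62.7% under barely widening peaks, against 64.0% under other peaks, and the median number of CpG was 24 under barely widening peaks, against 25 under other peaks. All 17470 listed promoters had medians of 56.3% GC and 13 CpG. The letters GGGCGG, bound by SP and KLF factors, were on either strand of 66.5% of the promoters (exact 95% interval 62.3 to 70.5%), against 72.4% at other peaks and 45.9% of all listed promoters. The ETS letters CCGGAAGT were in 9.90% of promoters under barely widening peaks, against 9.96% under other peaks and 5.19% of all promoters. These shares stood above those of all promoters in both sets of peaks. The C/EBP letters TTGCNNAA were in 9.33% under barely widening peaks (exact 95% interval 6.98 to 12.2%), against 6.75% under other peaks and 10.2% of all promoters. The NF-kappaB letters GGGANTTCC were in 4.00% under barely widening peaks (exact 95% interval 2.49 to 6.05%), against 2.27% under other peaks and 1.85% of all promoters. For the SP and KLF, C/EBP and NF-kappaB letters the share under other peaks lay outside the interval of the barely widening peaks. At the same CM lengths it also did, at 72.7, 6.80 and 2.12%. The TATA box letters TATAAA were in 3.24% under barely widening peaks (exact 95% interval 1.90 to 5.13%), against 4.96% under other peaks and 13.3% of all promoters. At the same CM lengths the TATAAA share under other peaks was 5.43%, outside that interval. Both strands were searched for 15 motifs, of which these 5 were chosen as examples after their values were seen. No allowance was made for the 15 motifs searched, and a match describes the letters only.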

How the data were processed

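H3K9ac was mapped by ChIP-seq with single-end reads in 4 samples, of which the 2 immunoprecipitated libraries were used. Per the submitters' processing notes, Bowtie2 2.4.4, MACS2 2.2.7.1 and deepTools 3.5.1 were used with build mm10. Settings and the use of the inputs are not given in the sources used here. The authors deposited 1 list of broad peaks per library, not pooled, and MACS2's own values stand beside each peak: an integer score, the enrichment as a ratio (fold), and p and q on a −log10 scale. The score was not used. Read depth is unknown, and a deeper library gives more and longer peaks.

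Positions were written with a first base numbered 1. Gene ends came from 21887 protein-coding genes of RefSeq GRCm38.p6, the assembly of mm10. Strand and promoter sequences were known for 17470 of them through the RefSeq promoter table. Exons, introns and UTRs were not analysed here. Peaks overlapping by at least 1 bp were paired, and the longest romidepsin peak was the partner. Widening, gaps, gene density within 50 kb, 31 gene lists and 15 motifs were then described in Python 3.11.15 with pandas 2.3.3 and scipy 1.17.1. Values at equal CM lengths used bins of 500 bp. Shares have exact Clopper-Pearson intervals at 95% confidence. With 1 library per condition no test was run. The steps were checked on simulated peak lists.

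The members and lists were chosen with earlier results of these data known. Named peaks were the 8 with the highest CM fold, the 5 longest in CM, the 5 with the lowest ratio, the 5 with the highest romidepsin fold, the 5 on each side of the ratio limit, the 3 most isolated partners and, per gene list, the one with the highest CM fold. Other names that make up small counts, X and Y genes and further list members were picked with their values in view. The alternatives changed the ratio, length and window limits, −log10 q, overlap and merging, and their effect is given at the end. A peak that the naming rule selects is not reported here.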

Additional observations from a re-analysis of the deposited data

How the results depend on the processing

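The number of barely widening peaks, 878, was 138 at a ratio limit of 1.5, 3630 at a limit of 3, 474 with CM peaks at a −log10 q of at least 5, 368 with peaks of each list closer than 1 kb merged (322 of them shared with the 878), and 315 with romidepsin peaks alone merged, an alternative added after seeing the data. The share of gene-end peaks was 1.43, 37.7, 8.08 (CM peaks up to 2500 bp), 7.98 (romidepsin peaks at a −log10 q of at least 5), 4.06 (both lists merged) and 3.27% (romidepsin merged). The share at zinc finger genes was 3.77 and 48.4% at the limits of 1.5 and 3, 8.38% with both lists merged and 7.54% with romidepsin merged. It stood above that of autosomes in all 16 settings run. The share on X was 13.4 and 58.2% at those limits, 14.5% with both lists merged and 7.53% with romidepsin merged. With the CM q threshold it was 33.3% on only 3 X peaks (exact 95% interval 0.840 to 90.6%). X stood above autosomes in 14 of 15 settings, that one included. The exception was the romidepsin q threshold, with 0.418% on X, where 1 X peak kept a partner. Peaks without a partner count as not barely widening, so that value does not measure widening. The share of barely widening peaks with another romidepsin peak within 5 kb of the partner ran from 16.6% (romidepsin q threshold) to 91.3% (limit of 1.5). The CM median fold stayed between 5.27 and 6.27, and the share at gene starts between 95.5 and 99.8%, over all settings. Unknown depth limits every length, since peak length moves with depth and the calling threshold. No paired analysis was possible because each condition had 1 library.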
